A study of Mus musculus with 16 samples.

Results

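The 7 genes described here, Folr1, Slc15a2, Adamdec1, C1ql3, C8b, S100z and Prdm16, were selected on measured RNA levels: the count of each, library by library, was lower in mouse pancreatic neuroendocrine tumours of the C3H background than in those of the B6 background. All 7 were found by symbol among the 23224 rows of the count table, and all 7 were among the 16084 genes that passed the expression filter. The strain difference chose them, so their levels in C3H against B6 controls are given as a description, without a test. What that choice did not fix is how each gene varied among B6 tumours, what it did after MK801, and what its relatives and its neighbours in the genome did.

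The tumours came from RIP1Tag2 mice aged 14 to 16 weeks, in which the rat insulin promoter drives the SV40 T antigens in beta cells; all 3 groups carried this transgene. The groups were 5 B6 tumours from mice given MK801, an NMDA receptor antagonist, intraperitoneally at 1 mg/kg daily for 3 days (B6 MK801), 4 tumours of C3HeB/Fe mice (C3H controls) and 7 of C57Bl/6 mice (B6 controls). Control mice were untreated or received saline, and the labels do not say which. Nor do they say that each library is a different mouse, and the p-values then speak only of the variation among these samples, which may be technical. Libraries of polyA RNA held 38561334 to 57013815 estimated counts. The unit of level used throughout is CPM, a gene's counts in every 1000000 of its library after TMM scaling.

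Folr1 encodes folate receptor alpha, a lipid-anchored surface protein that binds folate and carries it into the cell, and Slc15a2 encodes PEPT2, a proton-coupled transporter of short peptides. Adamdec1 (decysin) encodes a secreted metalloprotease of the ADAM family that is known from immune cells of the gut. C1ql3 encodes a secreted C1q-domain protein that binds the adhesion receptor Bai3 at synapses, and C8b the beta chain of a complement component that joins the membrane attack complex and comes mainly from the liver. The other two are neither surface nor secreted proteins: S100z encodes an EF-hand calcium-binding protein, and Prdm16 a zinc-finger transcription factor of brown fat and blood stem cells. The name of surface and secreted genes therefore fits 5 of the 7.

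The tissue and the strain labels were checked first. Ins1 and Ins2, the insulin genes, took 1.24% to 8.85% of the counts of a library. Dlgap1 was at 0.535 ± 0.354 CPM in C3H controls (SD, n = 4) and 29.8 ± 5.70 CPM in B6 controls (SD, n = 7), and H2-Ea-ps, which B6 mice do not transcribe owing to a promoter deletion, was at 28.7 to 43.3 CPM in C3H controls and had at most 4 counts in a B6 library. Tumours differed widely in other cells: the summed level of 15 acinar markers was 1130 to 21800 CPM after MK801, 32.9 to 41320 CPM in C3H controls and 65.7 to 58340 CPM in B6 controls. The first principal component ran from -99.4 in B6 control replicate 6 to 104 in C3H replicate 1. A pair of B6 libraries is named because several values below rest on them. B6 control replicate 1 had the lowest summed level of 18 beta cell markers (33260 CPM) and a summed level of 13 hepatocyte markers of 2178 CPM, against 79.2 to 158 CPM in the other 15 libraries. It also had the highest summed level of 13 neuron and Schwann cell markers (919.7 CPM, against 398 to 836 CPM in the others) and of 10 markers of other islet cells (3890 CPM, against 207 to 2544 CPM). Its summed macrophage markers (1957 CPM) and T and NK cell markers (84.6 CPM) were the highest of all libraries as well. B6 MK801 replicate 5 had the highest level of 4 of the 7 genes among the MK801 libraries and the lowest of 2. It lay near the centre of the first principal component, at 5.82, but stood at the edge in other respects. Of all libraries it had the most estimated counts (57013815). Its summed ductal cell markers (1699 CPM) and B and plasma cell markers (83.1 CPM) were the highest, and its fibroblast and mural cell markers (584.9 CPM) the lowest.

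Every B6 control library lay above every C3H library for all 7 genes, which the choice of genes requires. Of all 16084 genes tested, 2.37% were placed in this way, and 1.52% were called lower in C3H by the edgeR quasi-likelihood test at a Benjamini-Hochberg adjusted p under 0.05. The rule that chose the genes did not use the MK801 libraries. For 6 of the 7 genes all 5 of them also lay above every C3H library, while 6.37% of all genes had this order. The exception was Prdm16. MK801 and B6 control libraries are of the same strain, and the genes were chosen for high values in that strain, so this count carries the choice with it.

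**Figure D1:**
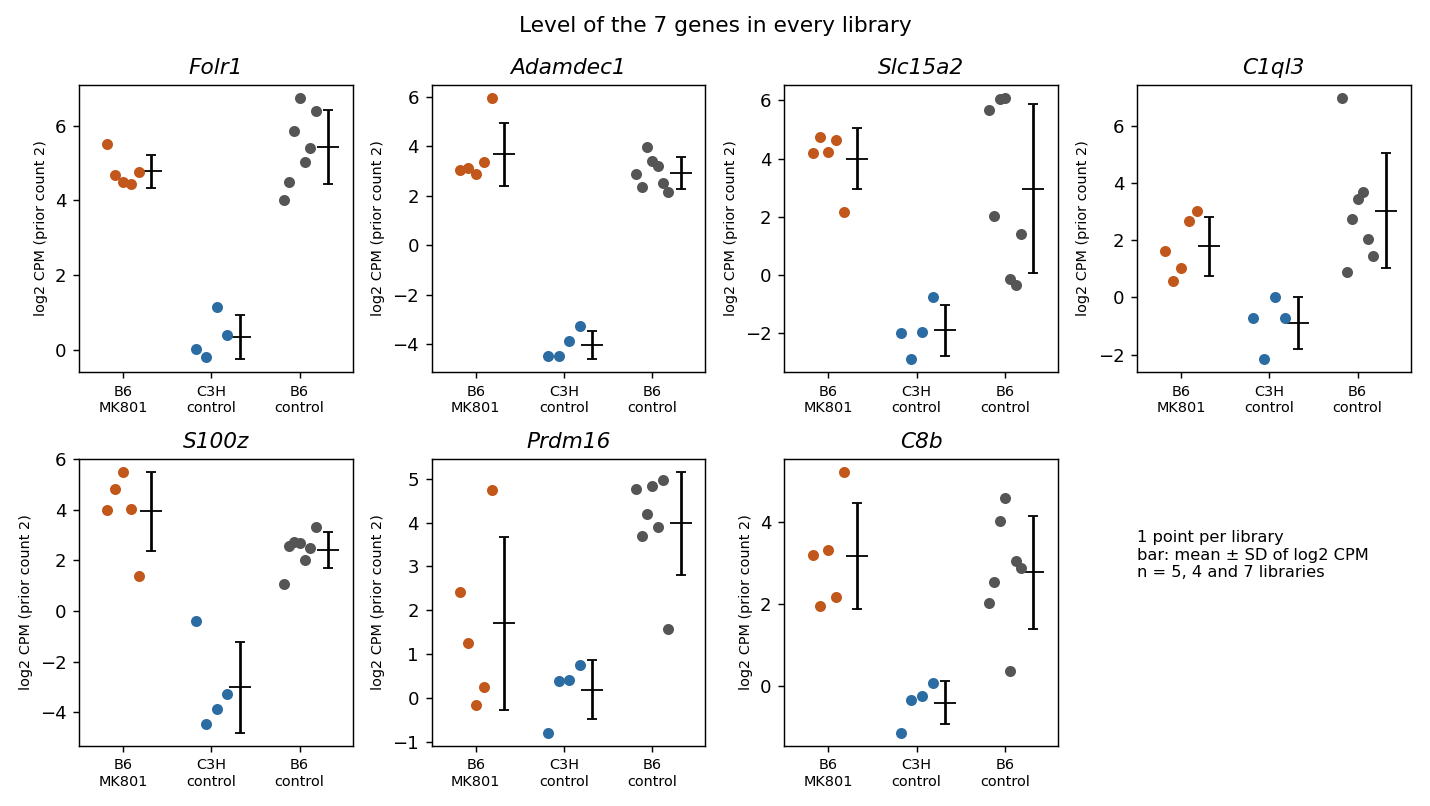
Level of the 7 genes as log2 CPM (vertical axis, prior count of 2) in each library of the 3 groups, with the mean and SD of each group as a bar. The C3H points lie lowest for every gene except Prdm16, where MK801 libraries reach down into the C3H range, and the B6 control points of Slc15a2 fall into an upper and a lower set.

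Folr1 was low in every C3H tumour and evenly spread among B6 tumours. Its levels in MK801 replicates 1 to 5 were 45.9, 25.7, 22.4, 21.6 and 27.0 CPM. In C3H replicates 1 to 4 they were 0.963, 0.830, 2.17 and 1.28 CPM. In B6 controls the lowest, median and highest were 16.2, 42.7 and 107 CPM. The lowest B6 library stood 7.47 times above the highest C3H library, and no wide step parted the B6 libraries, whose largest gap between neighbours in rank was 0.56 on the log2 scale. On the log2 scale C3H minus B6 controls was -5.31 ± 0.59 (SE of the fit).

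Adamdec1 came nearest to absence. It had 0, 0, 1 and 3 counts in C3H replicates 1 to 4, where a count of 0 allows up to 0.0760 CPM in replicate 1 and 0.0673 CPM in replicate 2. It was at 8.28, 8.66, 7.34, 10.2 and 62.2 CPM in MK801 replicates 1 to 5, and the lowest, median and highest of the B6 controls were 4.46, 7.36 and 15.8 CPM. All B6 libraries were thus far above the C3H ones, by at least 76.9 times at the nearest pair, and among B6 libraries MK801 replicate 5 alone was out of range. Summed over the 4 C3H libraries, 4 counts gave 0.0224 CPM, with an exact Poisson 95% interval of 0.00611 to 0.0574 CPM that covers counting error only. The mean of the B6 controls was 371 times that value, with an interval of 145 to 1363 from the counting of those 4 reads. Markers of the immune cells known for this gene were present in both strains. The summed level of 12 dendritic cell markers was 271 to 412 CPM in C3H controls and 220 to 558 CPM in B6 controls, and that of 15 macrophage markers 962 to 1248 CPM in C3H controls and 1134 to 1957 CPM in B6 controls. Over the 12 B6 libraries Adamdec1 had an r of -0.231 with the dendritic cell markers (permutation p = 0.462, adjusted 0.761). With the macrophage markers r was -0.277 (permutation p = 0.385, adjusted 0.714). In tumour RNA of mixed cells, fewer cells of a type and less RNA per cell cannot be told apart.

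Slc15a2 was the gene whose B6 controls fell into separate sets. MK801 replicates 1 to 5 held 18.1, 26.6, 18.4, 24.9 and 4.46 CPM. C3H replicates 1 to 4 held 0.203, 0.0898, 0.210 and 0.542 CPM. In B6 controls, replicates 1, 3 and 4 held 50.4, 66.2 and 67.6 CPM, and replicates 2, 5, 6 and 7 held 3.99, 0.863, 0.739 and 2.63 CPM. The step between both sets of controls was 3.64 on the log2 scale and made up 56.6% of their whole range, and all 5 MK801 libraries lay inside it. The lowest B6 control was only 1.37 times the highest C3H library, while the highest of the lower set was at 3.99 CPM against a C3H mean of 0.261 CPM. Over all 12 B6 libraries the widest step was 2.01 on the log2 scale and 31.3% of the range, short of a split.

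C1ql3 had a single tumour far above the rest. Its levels were 3.03, 1.44, 1.99, 6.24 and 8.06 CPM in MK801 replicates 1 to 5, and 0.557, 0.180, 0.959 and 0.561 CPM in C3H replicates 1 to 4. In B6 controls the lowest and median were 1.80 and 6.59 CPM, and replicate 1 had 124.9 CPM where the next highest had 12.6 CPM. The nearest MK801 library was 1.499 times the highest C3H library. The strain difference, -5.37 on the log2 scale, was -3.50 without B6 control replicate 1. By summed level, this library had the highest hepatocyte, neuron, other islet, macrophage, and T and NK cell markers and the lowest beta cell markers. Within the 7 B6 controls C1ql3 had an r of 0.928 with the neuron and Schwann cell markers (exact permutation p = 0.0105, adjusted 0.294) and of 0.914 with the hepatocyte markers (exact permutation p = 0.00615, adjusted 0.258). Over the 12 B6 libraries these were 0.742 (permutation p = 0.0205, adjusted 0.257) and 0.667 (permutation p = 0.0553, adjusted 0.31), and 0.079 and 0.127 without the 2 libraries farthest from the marker median. With the T and NK cell markers r over the 12 libraries was 0.642 (permutation p = 0.0166, adjusted 0.257), and 0.51 without the 2 farthest. Within the 7 B6 controls it was 0.649 (exact permutation p = 0.11, adjusted 0.743). The part of any of these cell types in the C1ql3 level was not tested. C1ql3 overlaps the gene Pter in the RefSeq annotation of GRCm38. Whether the counting used strand is not stated in what was at hand, so reads of one may be counted for the other.

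C8b varied widely among B6 tumours, down to the edge of the C3H range. It was at 9.12, 3.78, 9.89, 4.39 and 37.1 CPM in MK801 replicates 1 to 5, at 0.405, 0.741, 0.795 and 1.01 CPM in C3H replicates 1 to 4, and at a lowest, median and highest of 1.23, 7.21 and 23.9 CPM in B6 controls. B6 control replicate 5, at 1.23 CPM, was 1.22 times the highest C3H library, and the B6 libraries spanned a 30.2-fold range. In B6 control replicate 1, the library with 2178 CPM of hepatocyte markers, C8b was at 3.99 CPM, below the control median. Over the 12 B6 libraries C8b had an r of -0.046 with the hepatocyte markers (permutation p = 0.874, adjusted 0.93). That r was 0.392 without the 2 libraries farthest from the marker median. The part of hepatocytes in the C8b level was not tested.

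S100z was low in C3H tumours, except that replicate 1 kept a trace. Its levels were 0.709, 0, 0.0234 and 0.0580 CPM in C3H replicates 1 to 4, from 28, 0, 1 and 3 counts. They were 15.9, 28.2, 44.9, 16.2 and 2.55 CPM in MK801 replicates 1 to 5, and in B6 controls the lowest, median and highest were 2.04, 5.82 and 9.86 CPM. Among MK801 libraries 4 of 5 exceeded every B6 control and the remaining one lay near the bottom of the control range. For 0.274% of all genes every MK801 library lay above every B6 control, and for 1.14% every one lay below. None of the 7 genes had either order. The strain difference, -4.88 on the log2 scale, was -7.54 without C3H replicate 1. In RefSeq on GRCm38 S100z overlaps a predicted gene, Gm52025, and no protein-coding gene.

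Prdm16 was low in all C3H tumours and in some B6 ones. MK801 replicates 1 to 5 held 5.31, 2.34, 0.852, 1.14 and 26.8 CPM, and C3H replicates 1 to 4 held 0.532, 1.26, 1.29 and 1.64 CPM. In B6 controls the lowest, median and highest levels were 2.93, 18.3 and 31.4 CPM, with replicate 7 at the bottom and the next library at 12.8 CPM. MK801 replicates 3 and 4 thus lay inside the C3H range, and replicate 5 was among the high controls.

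**Figure D2:**
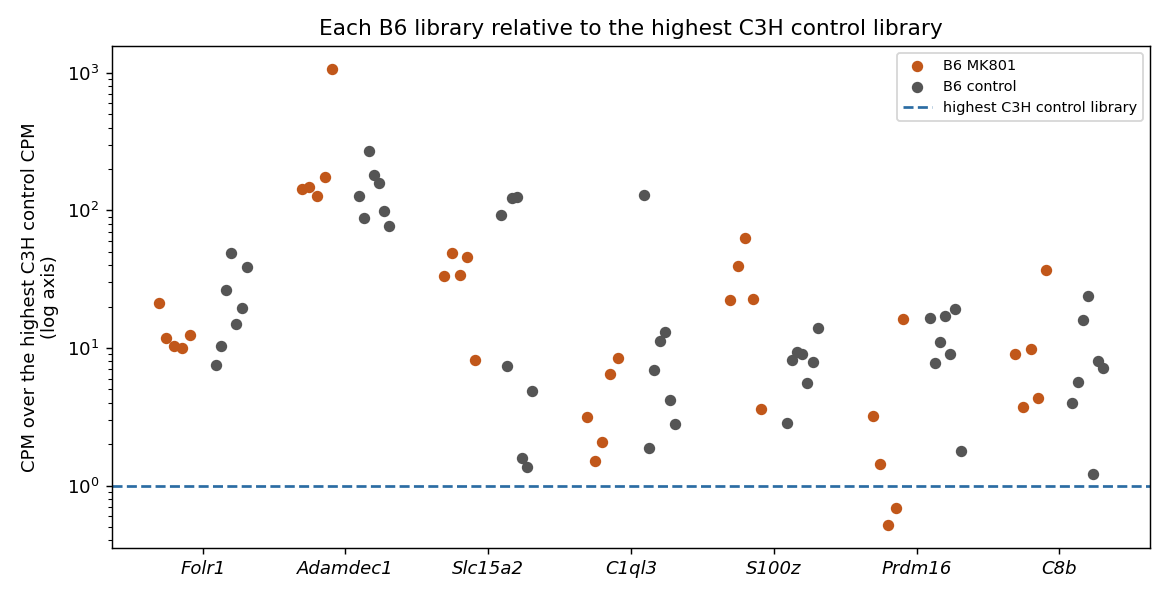
CPM of each B6 library divided by the CPM of the highest C3H control library (vertical axis, log scale), with MK801 libraries left of B6 controls for each gene and the dashed line at the highest C3H library. Adamdec1 keeps at least 76.9 times that level in every B6 library, Slc15a2 controls form 2 sets, and 2 MK801 libraries of Prdm16 fall under the line.

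The second comparison asked what MK801 did to these genes within the B6 strain. None of the 7 passed the test. By the edgeR quasi-likelihood test 0 of 7 had an adjusted p under 0.05, and the DESeq2 Wald test and limma-voom called 0 as well. An unadjusted edgeR p under 0.05 was found for 3, and the share of all genes at that level was not counted. Of all 16084 genes, 0.622% were called in either direction. The controls of this comparison are the libraries for whose high values the genes were chosen.

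S100z had the largest positive fold change. It averaged 21.5 ± 15.9 CPM after MK801 (SD, n = 5) and 5.75 ± 2.42 CPM in B6 controls (SD, n = 7), a difference of 1.91 ± 0.73 on the log2 scale (SE; edgeR adjusted p = 0.270). C1ql3 differed by -2.49 ± 1.00 on the log2 scale (SE; edgeR adjusted p = 0.303), and by -0.63 without B6 control replicate 1. Adamdec1 differed by 1.22 ± 0.57 (SE; edgeR adjusted p = 0.406), and by 0.05 without MK801 replicate 5. Each of these 2 values thus rested on a single library.

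Prdm16 averaged 7.29 ± 11.1 CPM after MK801 (SD, n = 5) and 19.4 ± 10.2 CPM in B6 controls (SD, n = 7). Its difference of -1.41 ± 0.77 on the log2 scale (SE) did not pass (edgeR adjusted p = 0.520). Without MK801 replicate 5 it was -3.004 and passed (edgeR adjusted p = 0.0414), and without that library and B6 control replicate 1 it was -2.904 (edgeR adjusted p = 0.063). Folr1 differed by -0.87 (log2; edgeR adjusted p = 0.445) and Slc15a2 by -0.57 (edgeR adjusted p = 0.926). C8b, at 0.44 (edgeR adjusted p = 0.906), turned to -0.48 without MK801 replicate 5.

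**Figure D3:**
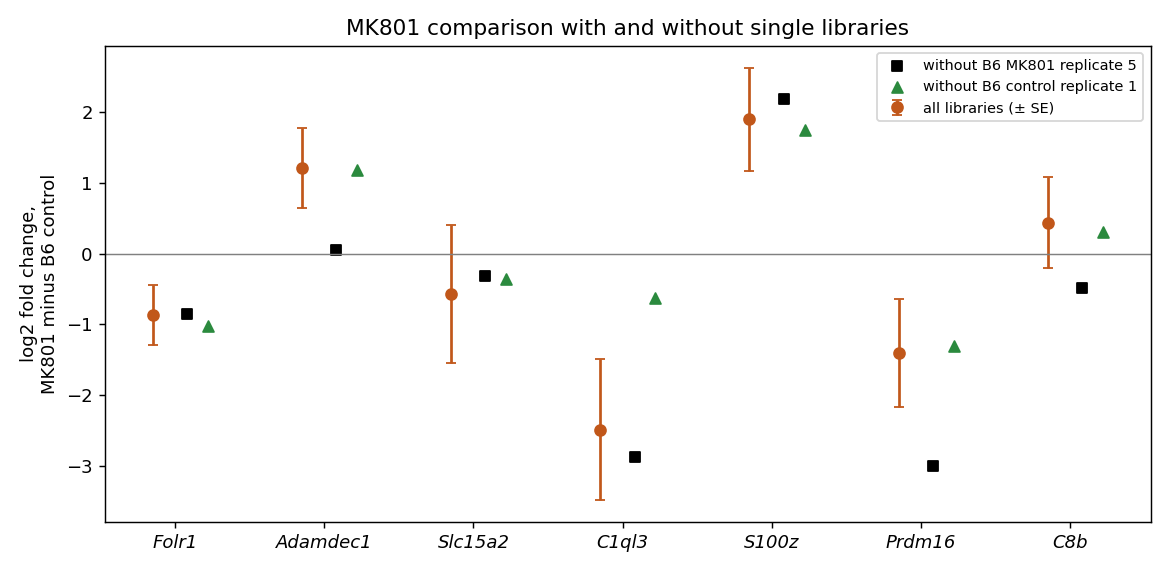
Log2 fold change of MK801 minus B6 control libraries for the 7 genes (vertical axis), from all libraries with its standard error (circles), without MK801 replicate 5 (squares) and without B6 control replicate 1 (triangles). Leaving out MK801 replicate 5 brings Adamdec1 to 0.05 and Prdm16 to -3.004, and leaving out B6 control replicate 1 brings C1ql3 to -0.63.

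Pairs of the genes were then compared over the B6 tumours, of which 2 pairs passed. Over the 12 B6 libraries 15 pairs were compared, leaving out Slc15a2 because its controls form separate sets. S100z and Prdm16 had opposite trends over the pooled libraries, with a Pearson r of -0.875 (permutation p = 0.00028, Benjamini-Hochberg adjusted 0.0042) and a Spearman rho of -0.811 (permutation p = 0.0022, adjusted 0.033), and r was -0.785 without the 2 libraries farthest from the median of S100z. The library with the least Prdm16, MK801 replicate 3, had the most S100z, and MK801 replicate 5 was high in Prdm16 and low in S100z. Within the 7 B6 controls r was -0.571 (exact permutation p = 0.201, adjusted 0.609), so the relation was not shown there. The permutations treat MK801 and control libraries as a single set. Between those groups S100z differed by 1.91 and Prdm16 by -1.41 on the log2 scale. The part of the treatment in the pooled r was not tested. Inside the MK801 group, S100z in replicates 1 to 5 was at 3.992, 4.82, 5.491, 4.019 and 1.375 log2 CPM. Prdm16 in the same libraries was at 2.42, 1.256, -0.156, 0.239 and 4.748 log2 CPM, and no r was computed within that group. S100z and C1ql3 had an r of -0.717 (permutation p = 0.00635, adjusted 0.0476) and a rho of -0.699 (adjusted 0.108), which fell short by rank; r was -0.565 without the 2 libraries farthest from the median of C1ql3, and within B6 controls it was -0.862 (exact permutation p = 0.0228, adjusted 0.199). The other 13 pairs had Pearson adjusted p-values from 0.257 upward in permutation tests.

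Markers of other cells and sequencing depth were set against the 6 genes without a split, 84 relations in all over the 12 B6 libraries. None had a permutation p that passed adjustment, and 11 had an unadjusted Pearson p under 0.05. The strongest was S100z with T and NK cell markers, with r = -0.821 (permutation p = 0.00137, adjusted 0.115) and rho = -0.671 (adjusted 0.377). That r was -0.661 without the 2 libraries farthest from the marker median and -0.267 within the 7 B6 controls (exact permutation p = 0.584). The summed T and NK markers were at 16.0 to 41.8 CPM after MK801, 34.9 to 57.7 CPM in C3H controls and 28.1 to 84.6 CPM in B6 controls, and their part in the S100z level was not tested.

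For each gene the 3 genes with the highest Pearson r over the 12 B6 libraries were found among 12917 genes, as a description. Among the genes searched, S100z had the closest match in Ppp4r1l-ps (r = 0.959), followed by Arhgef37 (0.938) and Ptpn13 (0.893), a tyrosine phosphatase gene. C1ql3 was matched by Cnp (0.940), a myelin enzyme gene, Ube2d1 (0.933) and 1300014I06Rik (0.923). Prdm16 was matched by Fam174b (0.894), Ephx4 (0.877) and AI427809 (0.876), and C8b by Cpped1 (0.903), Zfp174 (0.898) and Ift88 (0.893), a gene of ciliary transport. The values for Folr1 with AI182371, Gch1 and Hist1h1d were 0.894, 0.813 and 0.812. Adamdec1 had Spag1, Tbc1d22a and Tubgcp6 at 0.882, 0.828 and 0.810, with a Spearman rho of 0.657, 0.378 and 0.706. Its level in MK801 replicate 5 was far above the other B6 libraries, so that library may carry these r values. Slc15a2 had 4930579G18Rik, Rad54l2 and Cacng5 at 0.849, 0.843 and 0.842, with a rho of 0.748, 0.72 and 0.699. Its controls form separate sets, for which its other correlations were left out, so these values need the same caution. None of these 21 matched genes passed the strain test, with values between -1.11 (Ephx4) and 0.84 (Ptpn13) on the log2 scale. Arhgef37, for example, was at 0.532 to 3.32 CPM in C3H controls and 0.773 to 3.50 CPM in B6 controls.

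The neighbours of each gene were then read, up to 3 tested genes on each side in the gene order of GRCm38. Of 42 neighbours 1 was called in the strain comparison, beside 2.40% of all genes in either direction. By edgeR 8 had an unadjusted p under 0.05, a level at which the share of all genes was not counted. The one called was Crhbp, which encodes the binding protein of corticotropin-releasing hormone and lies next to S100z on chromosome 13. Folr2, the other folate receptor gene beside Folr1, was at 5.50 ± 4.77 CPM in C3H controls (SD, n = 4) and 7.79 ± 5.75 CPM in B6 controls (SD, n = 7), at an adjusted p in edgeR of 0.795. The ADAM genes beside Adamdec1, Adam7 and Adam28, had log2 differences of -1.77 (Adam7, edgeR adjusted p = 0.204) and 0.20 (Adam28, edgeR adjusted p = 0.803). Pter, beside C1ql3, was at 3.19 ± 0.703 CPM in C3H controls (SD, n = 4) and 14.0 ± 9.77 CPM in B6 controls (SD, n = 7) and missed the threshold (-2.13 on the log2 scale, edgeR adjusted p = 0.0519). Pter overlaps C1ql3, so reads of C1ql3 may be counted in these values.

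**Figure D4:**
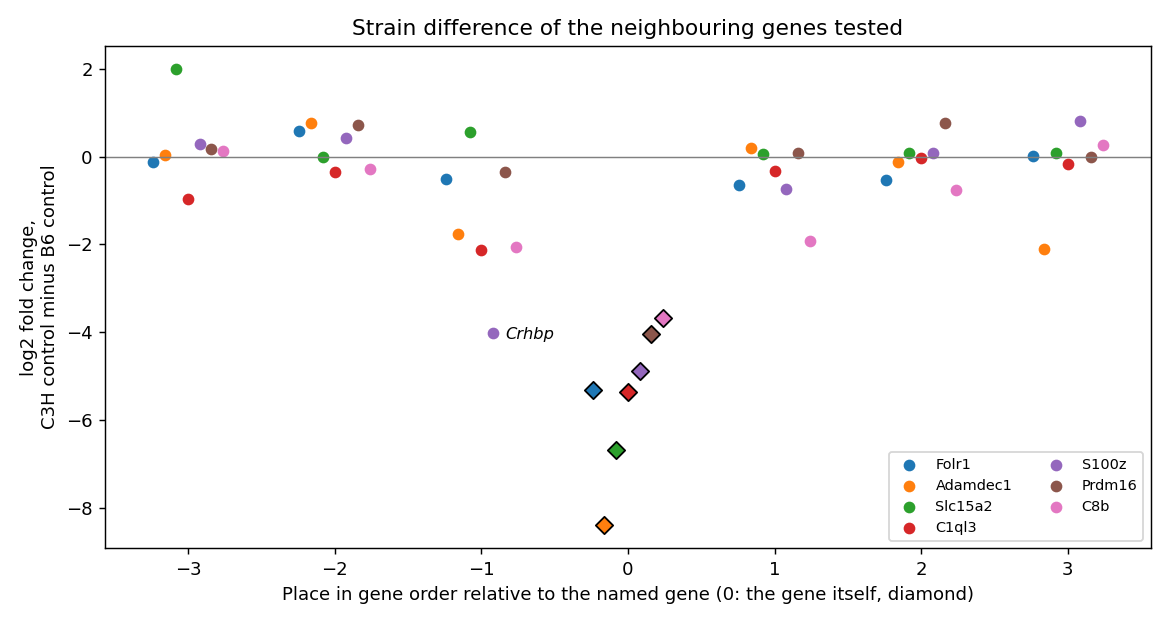
Log2 fold change of C3H minus B6 controls (vertical axis) for the 7 genes (diamonds at place 0) and the tested genes up to 3 places away on either side in gene order (horizontal axis). Crhbp, at -4.03 beside S100z, is the neighbour called, and the other 41 neighbours lie between -2.133 and 1.999.

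Crhbp ran with S100z across libraries. It was at 0.304, 0.0224, 0 and 0.0194 CPM in C3H replicates 1 to 4, from 12, 1, 0 and 1 counts, with its highest value in the library in which S100z kept its trace. It was at 3.98, 6.23, 10.9, 4.04 and 0.850 CPM in MK801 replicates 1 to 5, ranked as S100z was in those libraries, and at a lowest, median and highest of 0.476, 1.51 and 2.39 CPM in B6 controls. The strain difference was -4.03 ± 0.94 on the log2 scale (SE; edgeR adjusted p = 0.032). The call was lost without B6 control replicate 3 or 4 (edgeR adjusted p = 0.0521 and 0.0543) and without C3H replicate 2, 3 or 4 (edgeR adjusted p = 0.123, 0.104 and 0.115), while the difference itself stayed at -3.54 or below and was -6.37 without C3H replicate 1. After MK801 Crhbp differed by 1.89 ± 0.68 (SE; edgeR adjusted p = 0.231).

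Over the 12 B6 libraries S100z and Crhbp had a Pearson r of 0.961 (permutation p = 2e-05, Benjamini-Hochberg adjusted 4e-05) and a Spearman rho of 0.930 (permutation p = 8e-05, adjusted 0.00016). Without the 2 libraries farthest from the median of S100z r was 0.915. Within the 7 B6 controls r was 0.814 (exact permutation p = 0.0254, adjusted 0.0464) and rho 0.679 (exact permutation p = 0.11, adjusted 0.2). These pooled values too span MK801 and control libraries, between which both genes had positive differences. The pair was chosen after its values were seen, out of 42 neighbours. C1ql3 and Pter were the other pair computed, with r = 0.623 (permutation p = 0.0336, adjusted 0.0336) and rho = 0.587 (permutation p = 0.0473, adjusted 0.0473). Their r was 0.183 without the 2 libraries farthest from the median of C1ql3. Within the 7 B6 controls it was 0.741 (exact permutation p = 0.0464, adjusted 0.0464) and rho 0.571 (exact permutation p = 0.2, adjusted 0.2). C1ql3 and Pter overlap, so the same reads may enter both counts. The adjusted values in this paragraph cover only these 2 pairs and do not allow for the choice among neighbours. In the RefSeq annotation of GRCm38 S100z and Crhbp are on the same strand and do not overlap.

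**Figure D5:**
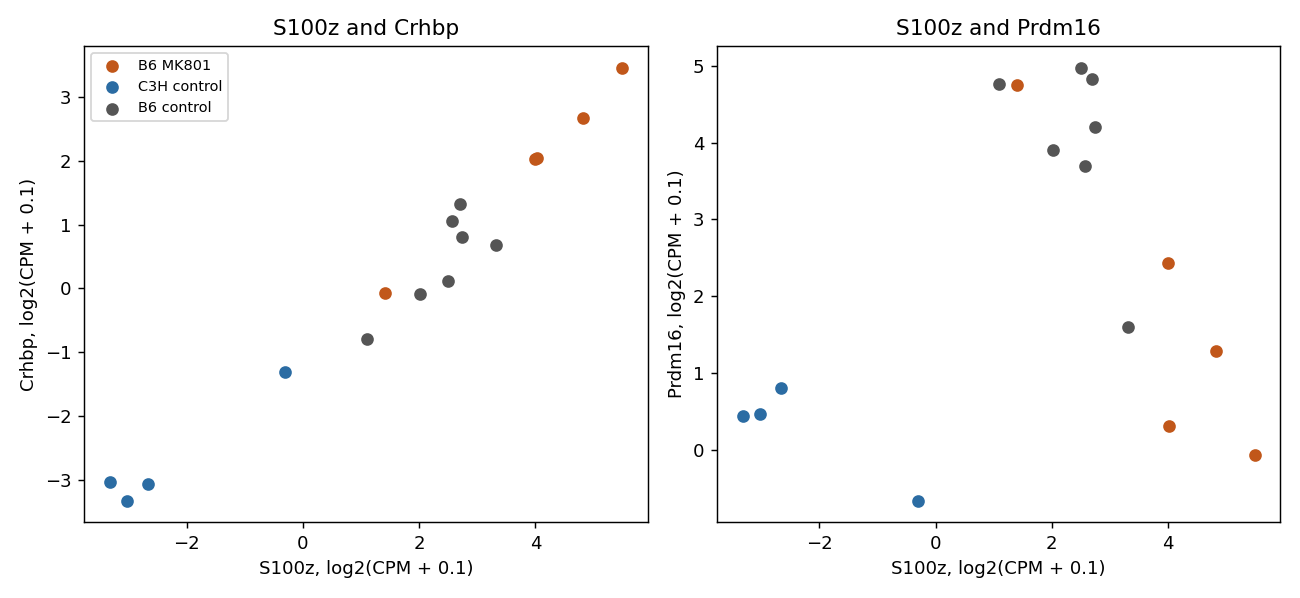
S100z against Crhbp (left) and against Prdm16 (right) in all 16 libraries, as log2 of CPM plus 0.1, coloured by group. Crhbp is high where S100z is high (r = 0.961 over the 12 B6 libraries), while Prdm16 is lowest where S100z is highest among B6 tumours and low throughout C3H.

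The upstream sequences of the pair that moved together, and of the gene that was split among B6 controls, are shown as a description. Their part in the levels of these genes was not tested. RefSeq promoter entries were found for 5 of the 7 genes and for Crhbp. The 250 bases before the annotated start are given 5′ to 3′ from RefSeq on GRCm38.p6, the C57BL/6J reference; C3H sequence was not analysed here. The windows are chr13:95478656-95478905 on the minus strand for S100z, chr13:95444832-95445081 on the minus strand for Crhbp and chr16:36784963-36785212 on the minus strand for Slc15a2. Capitals mark every TGACG (a core of the cAMP response element), CCAAT and GGGCGG (the GC box) on either strand.
S100z: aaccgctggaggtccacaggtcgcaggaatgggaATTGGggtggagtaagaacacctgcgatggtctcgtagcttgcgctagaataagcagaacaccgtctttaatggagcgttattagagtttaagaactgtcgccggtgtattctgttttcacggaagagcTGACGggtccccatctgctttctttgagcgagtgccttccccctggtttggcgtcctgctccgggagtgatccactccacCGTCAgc
Crhbp: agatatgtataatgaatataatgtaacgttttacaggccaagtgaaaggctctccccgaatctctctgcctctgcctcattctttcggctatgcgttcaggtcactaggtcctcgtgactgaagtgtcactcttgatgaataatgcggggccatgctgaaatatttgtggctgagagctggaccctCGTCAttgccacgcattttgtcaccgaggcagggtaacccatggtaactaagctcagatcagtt
Slc15a2: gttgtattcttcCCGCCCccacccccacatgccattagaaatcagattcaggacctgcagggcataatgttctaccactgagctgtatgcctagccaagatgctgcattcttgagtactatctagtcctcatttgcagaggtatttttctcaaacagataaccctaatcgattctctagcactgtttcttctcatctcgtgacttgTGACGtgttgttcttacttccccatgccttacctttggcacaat

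TGACG occurred 2 times before S100z and 1 time each before Crhbp and Slc15a2, and in 17.8% of all 32851 windows of this length. It was not found before C1ql3, Prdm16 or C8b. CCAAT was found before S100z, Prdm16 and C8b and in 33.8% of all windows, and GGGCGG before Slc15a2, C1ql3 and Prdm16 and in 32.7%. TATAAA and CACGTG were searched as well, on both strands, and found in none of these 6 windows, against 12.4% and 6.02% of all. CANNTG, of which CACGTG is a form, was found in 5 of the 6 windows, all but that of Prdm16, and in 66.2% of all. C1ql3 and Prdm16 had 23 and 22 CpG dinucleotides, S100z 15, Crhbp 9 and Slc15a2 and C8b 4 each, where the median window had 6. These matches are descriptions of the letters in the windows.

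Few genes related to the 7 by family or pathway passed the strain test. Of 111 related genes tested, 3 were called higher in C3H controls and 0 lower, beside 0.883% and 1.52% of all genes, and their median log2 fold change was -0.09 against -0.03 over all genes. By edgeR 13 were lower at an unadjusted p under 0.05, without a count of all genes at that level, and the DESeq2 Wald test called 3 lower. None of the 22 folate uptake and one-carbon genes, 14 ADAM genes, 3 peptide transporter genes, 15 C1q-like, cerebellin and receptor genes, 11 S100 genes or 20 PRDM genes and partners was called. Ggh, which encodes the lysosomal folate hydrolase, came nearest among the folate genes, at 23.7 ± 5.29 CPM in C3H controls (SD, n = 4) and 45.98 ± 9.31 CPM in B6 controls (SD, n = 7), at an adjusted p in edgeR of 0.0829. Among the PRDM genes it was Prdm9, a meiotic histone methyltransferase gene, at 12.2 ± 1.499 CPM in C3H controls (SD, n = 4) and 7.15 ± 1.99 CPM in B6 controls (SD, n = 7), at an adjusted p in edgeR of 0.105.

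The 3 genes called higher were all among the 26 complement genes. C4a was at 6.45 ± 2.07 CPM in C3H controls (SD, n = 4) and 1.201 ± 0.681 CPM in B6 controls (SD, n = 7), or 2.42 on the log2 scale (edgeR adjusted p = 0.00769). C1rb rose in C3H (log2 difference 4.25; edgeR adjusted p = 0.00274) but reached no more than 1.08 CPM in C3H controls. Cd59a, which encodes an inhibitor of the membrane attack complex that C8b belongs to, was at 35.0 ± 9.94 CPM in C3H controls (SD, n = 4) and 13.9 ± 5.05 CPM in B6 controls (SD, n = 7), or 1.33 on the log2 scale (edgeR adjusted p = 0.0364). Cd59a lost its call without B6 control replicate 2, 3, 4 or 6, without any of the 4 C3H libraries or without MK801 replicate 2, where its adjusted p in edgeR reached 0.108. C4a, C1rb and Cd59a each have a near copy in the genome (C4b, C1ra and Cd59b), among which reads may be split, so their levels are uncertain.

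After MK801, 1 of the 111 related genes rose and 2 fell, beside 0.149% and 0.473% of all genes. C1qtnf6, a secreted C1q and TNF related protein gene, was at 95.3 ± 18.2 CPM after MK801 (SD, n = 5) and 44.7 ± 9.68 CPM in B6 controls (SD, n = 7), and rose at an edgeR adjusted p of 0.0153. That p was 0.0696, 0.0553 and 0.0637 on leaving out MK801 replicate 2, 3 and 4 in turn. S100a16, an S100 family gene, was at 6.33 ± 1.09 CPM after MK801 (SD, n = 5) and 12.7 ± 3.16 CPM in B6 controls (SD, n = 7), at an adjusted p in edgeR of 0.0374. C2, a complement protease gene, was at 3.23 ± 1.43 CPM after MK801 (SD, n = 5) and 13.9 ± 7.29 CPM in B6 controls (SD, n = 7), at an adjusted p in edgeR of 0.0379. S100a16 and C2 each lost the call without B6 control replicate 1, 3 or 7, C3H replicate 3, or MK801 replicate 1, 2, 3 or 4, where the adjusted p in edgeR reached 0.109. Folr2, not called, was at 1.40 ± 1.01 CPM after MK801 (SD, n = 5) and 7.79 ± 5.75 CPM in B6 controls (SD, n = 7), at an adjusted p in edgeR of 0.124. The 15 macrophage markers summed to 739 to 1100 CPM after MK801 and 1134 to 1957 CPM in B6 controls, without overlap. The 12 dendritic cell markers were at 53.2 to 204 CPM after MK801 and 220 to 558 CPM in B6 controls, and the 15 fibroblast and mural cell markers at 585 to 894 CPM after MK801 and 979 to 1958 CPM in B6 controls, also without overlap. Of the 13 marker lists all others overlapped between these groups. Endothelial cell markers, for example, were at 322.5 to 599.4 CPM after MK801 and 373.3 to 832.7 CPM in B6 controls. The part of any of these cell types in the levels of S100a16, C2 and Folr2 was not tested.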

How the data were processed

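PolyA RNA libraries were made from tumour RNA with the Illumina TruSeq kit, per the labels' protocols. RSEM 1.2.12, Bowtie 1.0.1 and mm9 were used per the submitters' processing notes; neither annotation nor strandedness is stated. Estimated counts per gene, not normalized, were deposited by the authors with a normalized signal table, which the values show to be the same estimated counts over a single factor per library. mm9 is a C57BL/6J genome, and the effect of strain variants on the counting of C3H reads was not tested.

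Rounded estimated counts went into edgeR 4.0.16 (R 4.3.3): filterByExpr, TMM, and a single quasi-likelihood fit of all 3 groups, with p-values adjusted over 16084 genes. Each standard error is the absolute fold change (log2) divided by the root of its F statistic. Log2 CPM used a prior count of 2. Alternatives used DESeq2 1.42.0 and limma 3.58.1. The genes and lists were chosen with earlier results of these data known. Genes named are the 7, the called and up to 3 leading genes of each related list (not all printed), the 3 most alike, and called neighbours; Folr2, Adam7, Adam28 and Pter were chosen after their values were seen. A split was a gap over 2 on the log2 scale and over 50% of the range, with at least 2 libraries on each side. Permutation tests were two-sided, with 100000 draws for 12 libraries and all 5040 pairings for 7. Gene order came from RefSeq on GRCm38.p6 and covered 99.1% of genes tested. Pairs of replicates differed by at least 116.6 in chi-square per degree of freedom.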

Additional observations from a re-analysis of the deposited data

Results flagged for a closer look

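Of the 21 combinations of a gene and a group, 3 held a library far from the rest of its group on the log2 CPM scale (Dixon's criterion); chance alone flags about 1 in 20. Adamdec1 stood at 62.2 CPM in MK801 replicate 5, above the other 4 MK801 libraries at 7.34 to 10.2 CPM. Slc15a2 stood at 4.46 CPM in the same library, below the other 4 at 18.1 to 26.6 CPM. Prdm16 stood at 2.93 CPM in B6 control replicate 7, below the other 6 controls at 12.8 to 31.4 CPM.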

How the results depend on the processing

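Counts of calls moved most. In the MK801 comparison 24 genes were higher and 76 lower. These were 105 and 536 by DESeq2's Wald test, 7 and 3 with the 2 groups alone and 6 and 2 at an adjusted p of 0.01. The lower count was 157 by limma on the authors' values and 46 with no filter. In the strain comparison 142 were higher and 244 lower, against 261 and 533 by DESeq2, 67 and 86 at 0.01, and 129 lower with the 2 groups alone. Related genes after MK801, 1 higher and 2 lower, were 2 and 15 by DESeq2, and 0 and 0 with the 2 groups alone or at 0.01. The lower ones were 4 with upper-quartile factors or limma on the authors' values and 1 with no filter. Related genes in C3H, 3 higher and 0 lower, were 5 and 3 by DESeq2. The 1 neighbour called became 4 by DESeq2, 2 by limma-voom or limma on the authors' values, and 0 with the 2 groups alone or at 0.01.

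Replicate numbers did not pair the samples: same-numbered libraries deviated with correlations of -0.164 to 0.114 for MK801 and -0.312 to -0.002 for C3H against B6 controls. With the replicate block, 1 gene was higher and 0 lower after MK801, 65 higher and 97 lower in C3H, and 0 related genes or neighbours were called.

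Leaving out 1 library at a time gave 2 to 37 higher and 2 to 165 lower genes after MK801 (45 higher without B6 control replicate 1 and MK801 replicate 5 together, an alternative chosen after seeing the data), 100 to 179 higher and 104 to 294 lower in C3H, 0 to 1 and 0 to 4 related genes after MK801, 2 to 3 and 0 to 1 in C3H, 0 to 3 neighbours, and 0 to 1 of the 7 genes after MK801. After MK801 the lower genes numbered 30, 33 and 17 without B6 control replicate 1, 3 and 7, 35 without C3H replicate 3, and 2, 9, 2 and 165 without MK801 replicate 2, 3, 4 and 5. The higher genes numbered 13 and 11 without B6 control replicate 3 and 7, and 6, 7, 2 and 37 without MK801 replicate 2, 3, 4 and 5. In C3H 152, 112, 104 and 142 were lower without C3H replicate 1, 2, 3 and 4. The widest gap among B6 controls was 0.715 to 3.52 for C1ql3 and 0.566 to 2.324 for Prdm16. Over 12 B6 libraries it was 0.589 to 2.561 for Adamdec1 and 0.63 to 3.52 for C1ql3.

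After MK801 the Slc15a2 difference turned to 0.98 by limma-voom (adjusted p = 0.822) and 1.02 by limma on the authors' values (adjusted p = 0.844), and that of C8b to -0.478 without MK801 replicate 5 (adjusted p = 0.819) and -0.611 without both libraries (adjusted p = 0.724). Over single libraries left out, C8b ran from -0.478 to 0.864. The causes were not tested. Adamdec1 and S100z in C3H rest on 0 to 28 counts, which limits their fold changes.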
